A study of Mus musculus with 26 samples.

Results

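The mitochondrial genome encodes 37 genes: 13 mRNAs, 2 rRNAs and 22 tRNAs. They were taken from the gene table as the genes annotated on chromosome M with symbols starting with mt-, and all 37 were among the 55487 genes of the table. The values came from scRR-seq, a method that separates the DNA and the RNA of one cell, so that the replication state of the genome and the total RNA were both read from the same blastomere. Per the study, the RNA was taken from the supernatant, which is mainly cytoplasmic, and some RNAs stayed on the beads. Shares given here are shares of this fraction. RNA values of 9 blastomeres of 2 C57BL/6 mouse 8-cell embryos made by in vitro fertilization were analysed. Embryo 1 gave 3 cells with percentage replication scores of 0.00385% to 3.54%, and embryo 2 gave 6 cells with scores of 62.4% to 80.5%. The study classed representative cells of embryo 1, with a uniform copy number, as G1 or G2/M cells. Such a low score therefore does not tell an unreplicated genome from a fully replicated one. No cell was treated. Each embryo is 1 biological replicate and the cells of an embryo are not replicates of a condition, so differences are set beside the spread between cells and no p-value was computed. Embryo and replication state divide the cells in the same way and cannot be told apart. The numbers that close the cell labels fall into the ranges 11 to 17, with 1 cell of embryo 1 and 2 of embryo 2, and 20 to 25, with 2 and 4. The study lists its protocol scRR3, with 3 µl of lysis buffer, for the first range and scRR1, with 1 µl, for the second. In embryos, the study reported that scRR1 was biased toward the 3′ end of transcripts and found fewer transcripts than scRR3.

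Mitochondrial DNA is a small circle transcribed from both strands into long precursors. Most genes belong to the heavy-strand transcript, whereas the mRNA mt-Nd6 and several tRNAs belong to the light-strand transcript. The tRNAs sit between the other genes, and their excision frees the mRNAs and rRNAs. The rRNAs build the mitochondrial ribosome, the tRNAs serve its translation, and the mRNAs encode core subunits of the respiratory complexes and of ATP synthase. Oocytes carry a large store of mitochondria and mitochondrial DNA, which is divided among the blastomeres during cleavage.

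Cells of embryo 2 held a larger share of mitochondrial RNA, and most of the difference lay in the mRNAs. The difference lay within the label numbers 20 to 25, at 8.84 percentage points of the total, and was 0.108 within 11 to 17. Shares are relative, so more mitochondrial RNA and less nuclear RNA in a cell cannot be told apart. TPM, a length-corrected transcript abundance that sums to 1000000 in each cell, put 6.29%, 6.77% and 4.28% of the total in the 37 genes in embryo 1 cells 1, 6 and 7. The 6 cells of embryo 2 ranged from 5.98% to 18.2%. The mRNAs held 2.87%, 3.10% and 1.82% in embryo 1 cells 1, 6 and 7. They held 3.38%, 3.07%, 12.5%, 6.25%, 6.88% and 9.26% in embryo 2 cells 2, 3, 5, 6, 7 and 8. Embryo 2 cell 3, at 3.07%, lay just below embryo 1 cell 6, and the other cells of embryo 2 lay above every cell of embryo 1. The mean difference was 4.29 percentage points, above the pooled SD between cells of 3.06. The rRNAs took 1.57% ± 0.459 (SD, n = 3 cells) of TPM in embryo 1, with cells at 1.59%, 2.02% and 1.10%. In embryo 2 they took 2.47% ± 0.833 (SD, n = 6 cells), with cells at 1.79%, 1.43%, 3.04%, 1.95%, 3.26% and 3.32%. Cells 5, 7 and 8 of embryo 2 lay above the others, and the difference, 0.895 percentage points, was also larger than the pooled SD (0.746). The tRNAs took 1.61% ± 0.240 and 2.36% ± 1.15, from 1.36% to 1.83% and from 1.10% to 4.10%, and their difference of 0.742 was smaller than the pooled SD of 0.978. Without embryo 2 cell 8 the tRNA difference was 0.393.

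**Figure D1:**
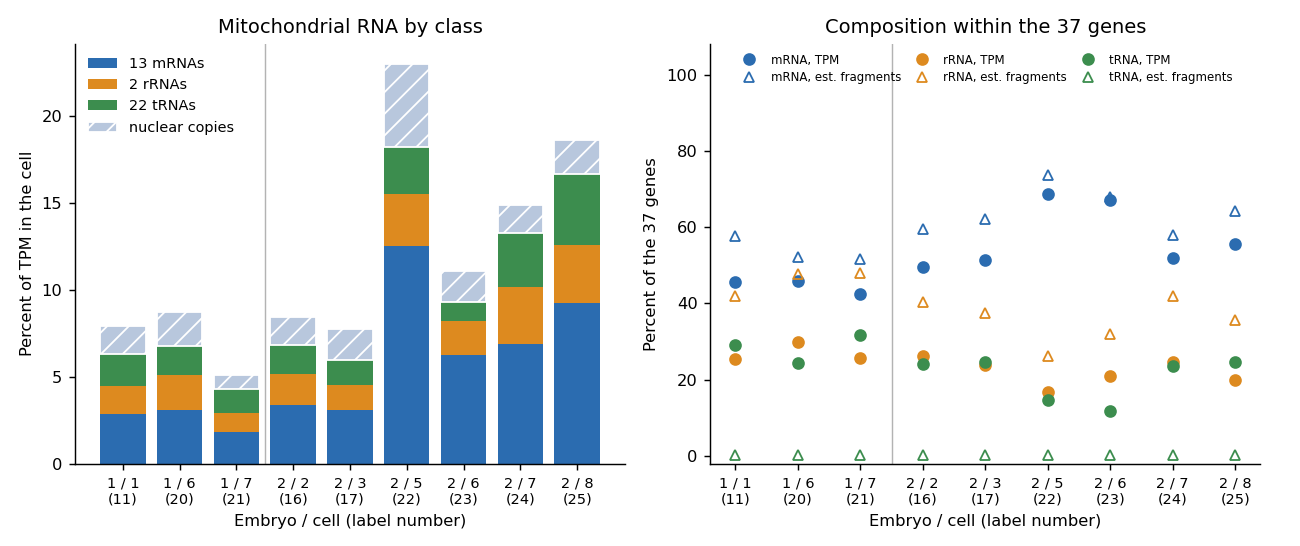
Left, percent of the TPM of each cell in the 13 mRNAs, 2 rRNAs and 22 tRNAs, with annotated nuclear copies of mitochondrial DNA stacked above them; right, percent of the 37 genes in each class by TPM (circles) and by estimated fragments (triangles), where the vertical line separates the embryos. The mRNAs ranged from 1.82% to 12.5% of TPM, and the tRNAs fell to at most 0.356% of mitochondrial fragments.

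Of the embryo difference in mitochondrial share, the mRNAs carried 72.4%, the rRNAs 15.1% and the tRNAs 12.5%. The part of the tRNAs was 7.95% without embryo 2 cell 8. Over all 9 cells, the variance of the mitochondrial share divided in a similar way, with 68.8% in the mRNAs, 15.3% in the rRNAs and 15.9% in the tRNAs. Within embryo 2 alone the parts were 67.4%, 14.9% and 17.7%. The spread within embryo 2 therefore lay mainly in the mRNAs too, whereas the 3 cells of embryo 1 gave 51.6%, 33.1% and 15.3%. Without embryo 2 cell 5, which had the highest mitochondrial share, the part of the variance over cells in the mRNAs was 59.6% and that in the tRNAs 21.9%.

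The make-up of mitochondrial RNA, as measured, differed as well as its share. Per the study, RNA was copied into cDNA with not-so-random primers, and scRR1 skipped the cDNA purification that scRR3 has. How these steps weigh the RNA classes was not tested. Of the TPM of the 37 genes, mRNAs made up 44.7% ± 1.82 (SD, n = 3 cells) for embryo 1 and 57.3% ± 8.42 (SD, n = 6 cells) for embryo 2. This difference, 12.7 percentage points, was larger than the pooled SD of 7.19, and every embryo 2 cell (49.6% to 68.7%) lay above every embryo 1 cell (42.6% to 45.8%). The rRNAs were 26.9% ± 2.47 and 22.1% ± 3.53, and the tRNAs 28.4% ± 3.72 and 20.6% ± 5.77. The mRNAs were thus the only class whose part was larger in embryo 2 by TPM. Summed TPM of mRNAs stood at 1.54 to 1.80 times that of rRNAs in embryo 1 and at 1.89 to 4.11 times in embryo 2. The TPM of nuclear copies of mitochondrial DNA was then added to that of the mRNAs, without weighting by length. The ratios of mRNAs to rRNAs became 2.42 to 2.83 and 2.60 to 5.69 and overlapped, as did the mRNA part of mitochondrial TPM (52.0% to 58.0% and 57.0% to 75.2%).

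TPM gives equal weight to transcripts and not to fragments, which matters for genes as short as tRNAs. The 6 tRNAs of 69 bases had values that were whole multiples of 1 step in each cell, to within 0.00306 of a step, so that the worth of 1 fragment could be read from them. The step lay between 58.8 and 115 TPM, and a value of 0 therefore allowed up to 176 to 344 TPM, the worth of 3 fragments. For longer genes fragments were estimated from the smallest steps of single-transcript genes. These estimates gave 177 to 469 fragments for the 22 tRNAs together in a cell, against 29377 to 168988 for the mRNAs and 27188 to 69214 for the rRNAs. The tRNAs thus held 11.9% to 31.7% of mitochondrial TPM on 0.140% to 0.356% of mitochondrial fragments. Weighted by estimated fragments, the mRNAs carried 77.0% of the embryo difference, the rRNAs 22.9% and the tRNAs 0.0860%. Over the 9 cells, the mRNAs led under each weighting tried, whereas the order of rRNAs and tRNAs in the variance over cells (15.3% and 15.9% by TPM) became 23.2% and 0.123% by estimated fragments.

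**Figure D2:**
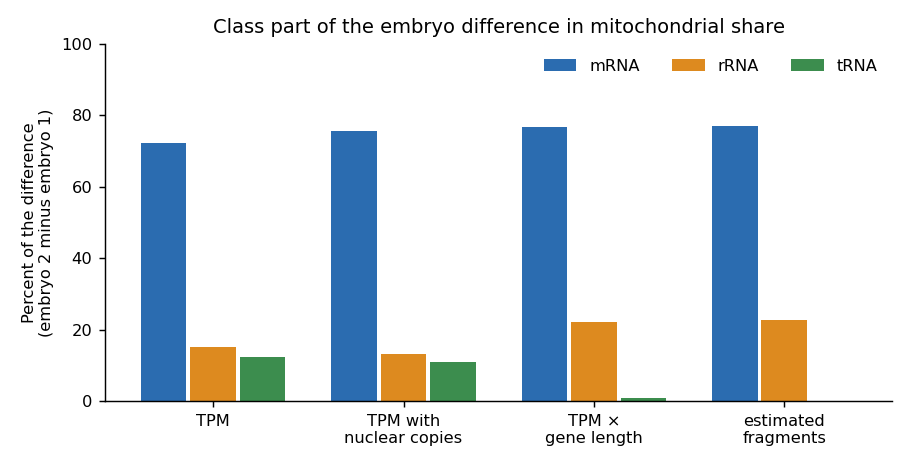
Percent of the embryo 2 minus embryo 1 difference in mitochondrial share that each RNA class carried, under 4 ways of weighting the genes. The mRNA bars lie between 72.4% and 77.0%, while the tRNA bar falls from 12.5% by TPM to 0.0860% by estimated fragments.

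Taken alone, the 2 rRNAs had the highest mean TPM of the 37 genes, 7944 for mt-Rnr1 and 13729 for mt-Rnr2, whereas mt-Atp6 (11184) and mt-Co2 (9479) lay above mt-Rnr1 when summed with their nuclear copies. mt-Rnr1, the RNA of the small ribosomal subunit, had 6657, 6597 and 3201 TPM in embryo 1 cells 1, 6 and 7. Embryo 2 cells 2, 3, 5, 6, 7 and 8 had 8325, 5497, 9093, 6406, 12770 and 12947 TPM, and this order of cells is kept for all genes. The cells of the 2 embryos overlapped between 5497 and 6657 TPM. mt-Rnr2, the RNA of the large subunit, had 9280, 13572 and 7803 TPM in embryo 1 and 9602, 8814, 21319, 13121, 19840 and 20210 TPM in embryo 2. Here too the embryos overlapped, and embryo 2 cells 5, 7 and 8 stood above all others. On the scale of mean log2(TPM + 1), used for all gene differences here, embryo 2 exceeded embryo 1 by 0.75 for mt-Rnr1 (pooled SD 0.54) and by 0.55 for mt-Rnr2 (pooled SD 0.53). Both differences were just above the spread between cells and under the 2-fold limit of 1 used to call a gene higher or lower. The 2 rRNAs leave the same precursor, and the ratio of mt-Rnr2 to mt-Rnr1 ranged from 1.15 to 2.44 over the 9 cells. It averaged 1.96 ± 0.528 over the 3 cells of embryo 1 and 1.71 ± 0.421 over the 6 of embryo 2 (SD), a difference within the pooled SD of 0.454.

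Among the mRNAs, mt-Co3, which encodes subunit III of cytochrome c oxidase, stood apart in every cell. It was listed at 0.24, 0.30 and 0.21 TPM in embryo 1 and 0.27, 0.25, 0.16, 0.23, 0.24 and 0.25 TPM in embryo 2, whereas the means of the other mRNAs lay between 608 and 7646 TPM. The annotated pseudogene Gm28437 on chromosome 1, a nuclear copy of mt-Co3, measured 2986, 3656 and 2008 TPM in embryo 1. In embryo 2 it was at 2388, 2326, 10212, 4570, 5685 and 7438 TPM. The 783 bases of Gm28437 are identical to bases 1 to 783 of mt-Co3, which is 784 bases long, so a read from within them fits both genes equally. The last bases of both genes in the GRCm38 assembly are shown to make this single difference in length visible. The capital marks the base of mt-Co3 (chrM:9361-9390, plus strand) that Gm28437 (chr1:24613189-24613217, minus strand) does not hold.
mt-Co3: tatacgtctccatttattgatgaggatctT
Gm28437: tatacgtctccatttattgatgaggatct

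Nuclear copies of mitochondrial DNA are insertions of the organelle genome into chromosomes. Annotated nuclear transcripts with at least 95% identity to the mitochondrial genome over at least 50% of their length numbered 11. Of these, 7 lie side by side in 1 block on chromosome 1 (24611535 to 24616197, minus strand) and 4 on chromosomes 2 and 13. The 4 others did not exceed 16.3 TPM in any cell. In the block, Gm28439, Gm10222, Gm28437, Gm10925 and Gm28661 match mt-Nd4, mt-Nd4l, mt-Co3, mt-Atp6 and mt-Co2 without a mismatch, and Gm28438 differs from mt-Nd3 by 1 base. Gm29216 differs from mt-Co1 by 1 base over the 483 of its 492 bases that align. The windows around these 2 bases are shown because they are the only places in the block where aligned bases of a copy and its gene differ. With positions counted from 1 at the first base of the mitochondrial gene, the differences are T3C in mt-Nd3 and A1066T in mt-Co1, each in capitals (mt-Nd3 at chrM:9459-9488, Gm28438 at chr1:24613090-24613119, mt-Co1 at chrM:6390-6419, Gm29216 at chr1:24616159-24616188).
mt-Nd3: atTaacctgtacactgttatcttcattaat
Gm28438: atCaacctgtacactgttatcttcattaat
mt-Co1: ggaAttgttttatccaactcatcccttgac
Gm29216: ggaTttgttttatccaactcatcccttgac

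The copies took 0.839% to 4.79% of TPM in a cell. The copies of highest mean TPM were Gm28437 at 4586, Gm10925 at 3553 and Gm28438 at 3139. The part of a gene's reads placed on its copy varied widely between cells for identical sequences. Of mt-Atp6, a subunit of the proton channel of ATP synthase, 85.03% of the summed level was on Gm10925 in embryo 2 cell 3, 0.108% in embryo 1 cell 7 and 0% in embryo 2 cells 7 and 8. Of mt-Co2, subunit II of cytochrome c oxidase, 89.8% was on its copies in embryo 1 cell 7 and 6.53e-05% in embryo 2 cell 8. In embryo 1 cell 7 most of mt-Co2 was thus on a copy and most of mt-Atp6 on the gene. Values of mt-Co2, mt-Atp6, mt-Co3, mt-Nd3, mt-Nd4l and, to a smaller extent, mt-Co1 and mt-Nd4 alone are uncertain for this reason. Reads from the identical stretches of a gene and its copy cannot be told apart by sequence, and each mRNA is given both alone and summed with its copies, weighted by length.

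**Figure D3:**
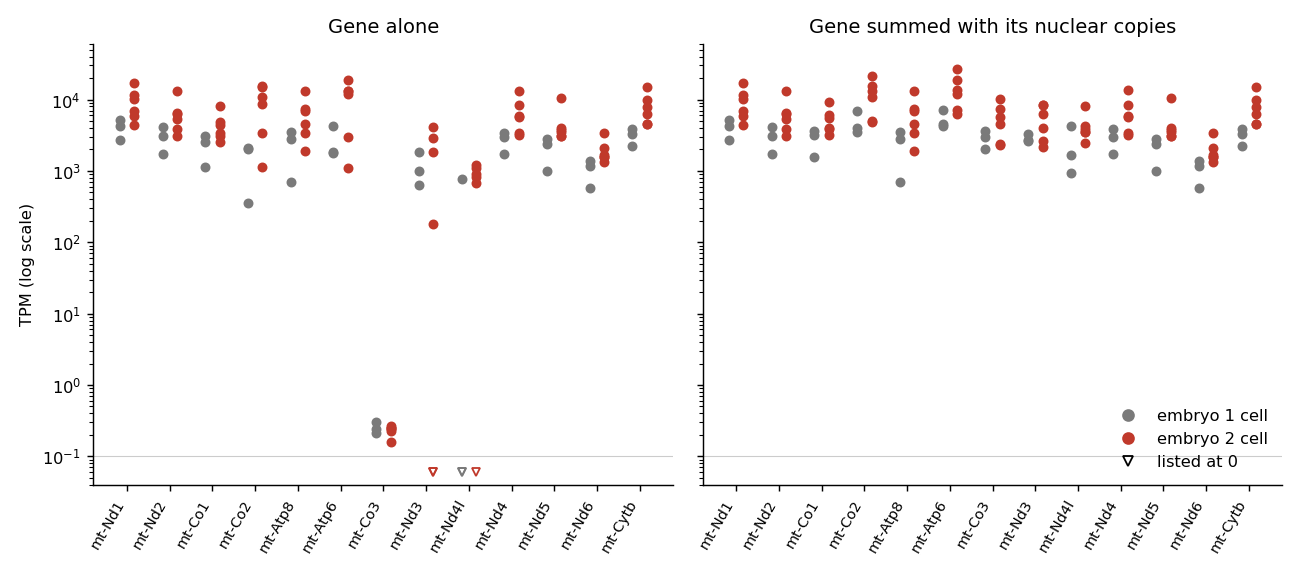
TPM on a log scale of the 13 mRNAs in each cell, alone (left) and summed with their nuclear copies weighted by length (right); triangles mark values listed at 0, drawn below the line. Alone, mt-Co3 lies at 0.16 to 0.30 TPM, while with copies the means of the 13 mRNAs lie between 1634.9 and 11184 TPM.

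Summing brought the mRNAs closer together. Their coefficient of variation over the 9 cells ranged from 16.3% (mt-Co3) to 103% (mt-Nd3) for the genes alone and from 46.8% (mt-Nd6) to 76.6% (mt-Atp8) for the sums. The means spanned 6.84-fold, from mt-Nd6 to mt-Atp6. For mt-Atp6, the mRNA of highest mean TPM alone, the gene alone showed 1858, 1769 and 4241 TPM in embryo 1 and 2948, 1083, 12986, 12993, 12091 and 18845 TPM in embryo 2. Summed with Gm10925 it held 4513, 7199 and 4246 TPM and 6339, 7234, 26784, 13405, 12091 and 18845 TPM. Among these sums, embryo 2 cell 2 lay below the highest cell of embryo 1, cell 6. Embryo 2 cell 3 lay just above that cell, and the other 4 lay further above it. The difference was 1.55 (pooled SD 1.42) alone and 1.27 (pooled SD 0.71) summed. For mt-Co2, alone at 2064, 2005 and 359 TPM in embryo 1 and 1130, 3449, 15011, 10949, 8568 and 15238 TPM in embryo 2, the difference fell from 2.53 to 1.16 when its copies were added.

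mt-Nd1 and mt-Cytb have no annotated copy of this kind and give the difference without this uncertainty. mt-Nd1, a membrane subunit of complex I, had 4313, 5139 and 2718 TPM in embryo 1. In embryo 2 it was at 5899, 4393, 17013, 6798, 10255 and 11483 TPM, and only embryo 2 cell 3 lay within the range of embryo 1. mt-Cytb, the mitochondrially encoded subunit of complex III, measured 3242, 3831 and 2214 TPM and 4486, 4500, 15076, 7738, 6201 and 9821 TPM. Every embryo 2 cell was above every embryo 1 cell. Embryo 2 exceeded embryo 1 by 1.10 (pooled SD 0.65) for mt-Nd1 and by 1.26 (pooled SD 0.62) for mt-Cytb.

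By the 2-fold limit, 9 of the 13 mRNAs alone were higher in embryo 2 and 1, mt-Nd3, was lower, beside 7.69% higher and 10.7% lower among the 13648 genes with mean TPM over 1. Of the 13, 12 passed this filter, all except mt-Co3. The median difference of the 13 mRNAs was 1.15, beside -0.039 over all genes tested. Every embryo 2 cell exceeded every embryo 1 cell for 2 of the 12, mt-Nd5 and mt-Cytb, and was below for 0, beside 0.843% higher and 2.51% lower of all genes. The largest difference was 5.01 for mt-Nd4l, a small membrane subunit of complex I, and the smallest was -3.05 for mt-Nd3, another complex I subunit. mt-Nd4l showed 0, 765 and 0 TPM in embryo 1 and 681, 1090, 902, 0, 1210 and 821 TPM in embryo 2. mt-Nd3 held 626, 993 and 1834 TPM in embryo 1 and 0, 181, 2932, 0, 1826 and 4120 TPM in embryo 2. Wherever 1 of them was listed at 0, its copy had 953 TPM or more, and these differences depend on the 1 added to each value. Summed with copies they were 1.08 for mt-Nd4l and 0.71 for mt-Nd3.

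Summed with copies, all 13 mRNAs were higher in embryo 2, by 0.71 (mt-Nd3) to 1.45 (mt-Atp8), with a median of 1.10. The difference exceeded the pooled SD for 11 of the 13, all except mt-Co3 and mt-Nd3, and was over 1 for 9. Complex I subunits ranged from 0.71 to 1.15, mt-Cytb of complex III was at 1.26, the cytochrome c oxidase subunits ranged from 0.75 to 1.16, and ATP synthase subunits were at 1.27 and 1.45. The pooled SDs of the single mRNAs ran from 0.54 to 1.06, and the ranges of complex I and cytochrome c oxidase overlapped. mt-Atp8 and mt-Atp6 overlap by 43 bases, mt-Nd4l and mt-Nd4 by 7, and reads within the overlaps fit both genes.

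The embryo difference depended on the range of label numbers. Within the range 11 to 17 the mRNAs held 0.357 percentage points more TPM in the 2 cells of embryo 2 than in the 1 cell of embryo 1, the rRNAs 0.0182 more and the tRNAs 0.267 less. Within 20 to 25 the differences were 6.26, 1.33 and 1.25. The same genes showed both patterns. Summed with copies, the mRNAs differed by -0.45 to 0.59 (median 0.19) within 11 to 17 and by 1.13 to 2.40 (median 1.58) within 20 to 25, where all 13 were over 1. Among the genes alone, 1 mRNA was higher and 1 lower by the 2-fold limit within 11 to 17, beside 11.6% and 17.1% of all genes, and 11 were higher and 1 lower within 20 to 25, beside 12.9% and 14% of all genes. Within 20 to 25, every embryo 2 cell exceeded both embryo 1 cells for 9 of the 12 mRNAs that passed the filter, 0 of the 2 rRNAs and 3 of the 22 tRNAs (mt-Tv, mt-Tl1 and mt-Tm), beside 6% of all genes. For 0 members was every embryo 2 cell lower, beside 8.68% of all genes. In fragments, embryo 1 cells 6 and 7 held 4 and 2 of mt-Tv and 1 and 0 of mt-Tm. Embryo 2 cells in this range held 5 to 12 and 2 to 10. For both tRNAs embryo 1 cell 1, numbered 11, had the highest value of all cells. The rRNAs differed by 0.023 and -0.013 within 11 to 17 and by 1.11 and 0.83 within 20 to 25.

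**Figure D4:**
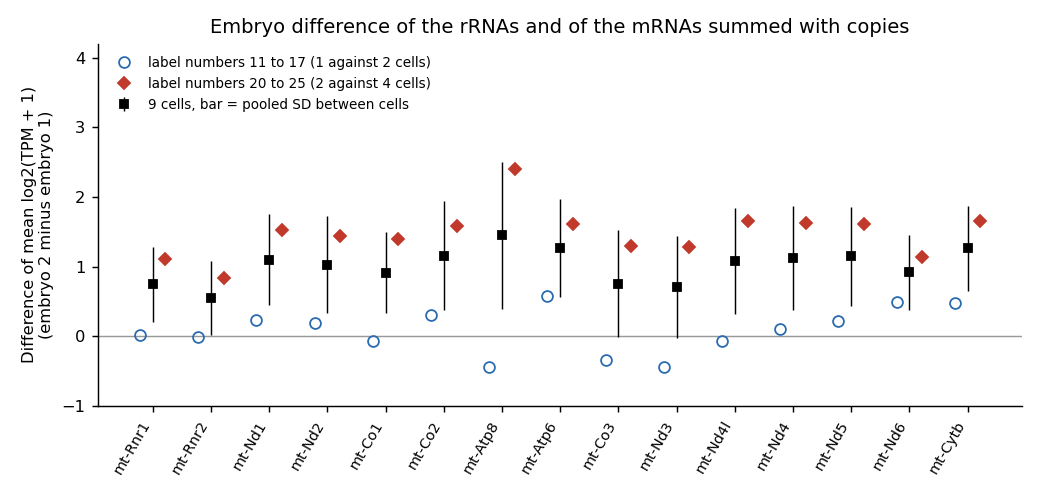
Difference between the embryos (2 minus 1) on the mean log2(TPM + 1) scale for the 2 rRNAs and of the 13 mRNAs summed with their nuclear copies, over 9 cells (squares, bars are the pooled SD between cells) and within the 2 ranges of label numbers. All 13 mRNAs lie above 1 within 20 to 25 and between -0.45 and 0.59 within 11 to 17.

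Between the ranges, cells numbered 20 to 25 of embryo 2 held 7.97 percentage points more mitochondrial TPM than its cells numbered 11 to 17, and the mRNAs made up 69.04% of this, the rRNAs 16.1% and the tRNAs 14.9%. In embryo 1 the same step was -0.769 percentage points. The embryo 1 side rests on 1 cell against 2. The part of the protocol in these values was not tested.

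The tRNAs, which bring amino acids to the mitochondrial ribosome, were lower per gene than the other classes, averaging 733 ± 109 TPM (SD, n = 3 cells) for embryo 1 and 1071 ± 521 TPM (SD, n = 6 cells) for embryo 2. In the same cells, mRNAs averaged 1998 ± 525.6 and 5302 ± 2764 TPM and rRNAs 7852 ± 2293 and 12329 ± 4167 TPM. The 22 tRNAs differed far more among themselves, with means from 37.8 TPM (mt-Tr) to 5768 TPM (mt-Ts1). Of the 198 values, 42 were listed at 0, and 14 of the 22 tRNAs were at 0 in at least 1 cell. The 2 serine tRNAs stood near opposite ends of this range. Their sequences from the GRCm38 assembly are shown to make plain how short these genes are (mt-Ts1 at chrM:6870-6938, minus strand, 69 bases, and mt-Ts2 at chrM:11613-11671, plus strand, 59 bases). Capitals mark the bases that mt-Ts1 shares with the end of mt-Co1 on the opposite strand and that mt-Ts2 shares with mt-Tl2.
mt-Ts1: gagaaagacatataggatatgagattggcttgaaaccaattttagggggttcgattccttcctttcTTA
mt-Ts2: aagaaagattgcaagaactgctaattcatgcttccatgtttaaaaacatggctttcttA

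mt-Ts1 had 3448, 3178 and 4670 TPM in embryo 1 and 3425, 2286, 3097, 5288, 8030 and 18489 TPM in embryo 2. In fragments these were 50, 36 and 70, and 37, 33, 44, 90, 70 and 213. Embryo 2 cell 8 was far above the others, and its 213 fragments have an exact Poisson 95% interval of 185 to 244, which covers counting error only. In that cell mt-Rnr1, at 12947 TPM, rested on an estimated 18894 fragments. mt-Ts1 is a light-strand gene, and without strand its fragments cannot be told apart from heavy-strand transcript over the same bases. This gene alone carried 5.06% of the embryo difference in mitochondrial share, out of the 12.5% of all tRNAs. mt-Ts2 was at 387 TPM in embryo 1 cell 1, an estimated 3 fragments, and listed at 0 in the other 8 cells, so no fold is given.

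mt-Te, the glutamate tRNA, measured 1103, 1677 and 2402 TPM in embryo 1 and 1574, 1316, 2534, 1528, 1377 and 4948 TPM in embryo 2. mt-Tl1, a leucine tRNA that follows mt-Rnr2, showed 1640, 750 and 754 TPM and 1753, 3442, 4083, 936, 2045 and 1981 TPM. Embryo 2 exceeded embryo 1 by 1.13 for mt-Tl1 (pooled SD 0.73), with embryo 2 cell 6 inside the range of embryo 1, and by 0.24 for mt-Te (pooled SD 0.69). mt-Th, the histidine tRNA, had the largest difference of the class. It held 76.8, 0 and 0 TPM in embryo 1 and 104, 155, 0, 131, 2077 and 683 TPM in embryo 2, and embryo 2 cell 7 held an estimated 16 of its fragments.

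**Figure D5:**
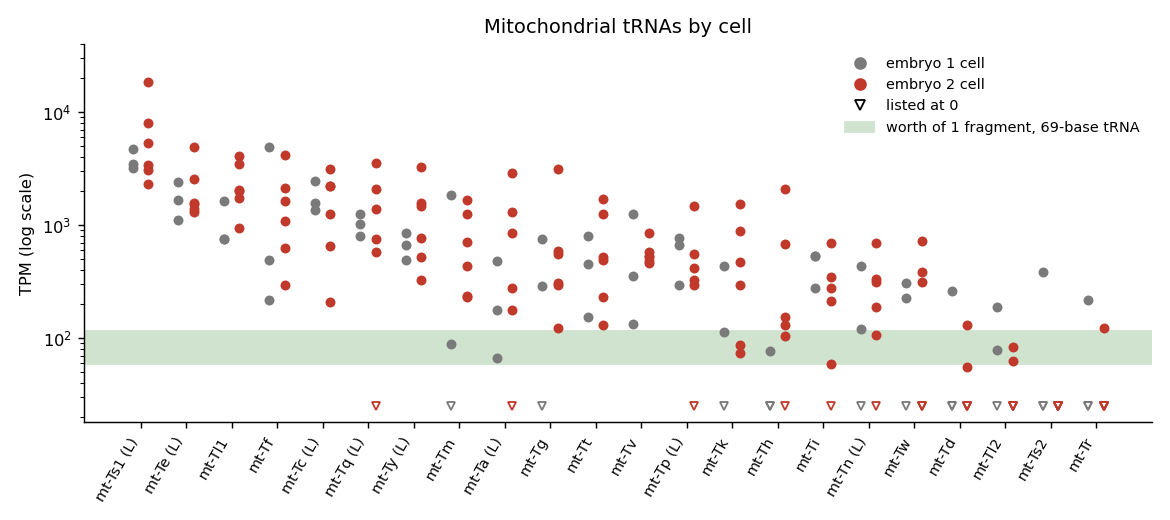
TPM on a log scale of the 22 mitochondrial tRNAs in each cell, ordered by mean; (L) marks light-strand tRNAs, triangles mark values listed at 0, and the band spans the worth of 1 fragment of a 69-base tRNA in the 9 cells (58.8 to 115 TPM). mt-Ts1 ranges from 2286 to 18489 TPM, and 14 of the 22 tRNAs have at least 1 value at 0.

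By the 2-fold limit 6 of the 22 tRNAs were higher and 6 lower in embryo 2, beside 7.69% higher and 10.7% lower of all genes, and all but mt-Tl1 of these 12 were listed at 0 in at least 1 cell. Among the 8 tRNAs above 0 in every cell, the differences ranged from -0.56 to 1.13 with a median of 0.50, and mt-Tl1 was the 1 tRNA of the 8 whose difference exceeded its pooled SD. The 10 mRNAs above 0 in every cell that passed the filter ranged, taken alone, from 0.92 to 2.53 and all 10 exceeded their pooled SD. The highest of these, mt-Co2, was at 1.16 when summed with its copies. Summed with copies, the 13 mRNAs ranged from 0.71 to 1.45 and 11 exceeded their pooled SD. For no tRNA was every embryo 2 cell above every embryo 1 cell. Of all 37 genes, 15 were higher and 7 lower, beside the same 7.69% and 10.7% of all genes, and the 15 became 6 without embryo 1 cell 7 and 9 without embryo 2 cell 5.

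The 8 light-strand tRNAs among the 22 held 49.7% to 80.9% of tRNA TPM. Their summed level was 9978 ± 1548 TPM over the 3 cells of embryo 1 and 14994 ± 9498 TPM over the 6 cells of embryo 2 (SD), and that of the 14 heavy-strand tRNAs was 6149 ± 3108 and 8558 ± 3564 TPM. Neither difference exceeded its pooled SD of 8070 and 3440 TPM. mt-Nd6, the complex I subunit on the light strand, had 1157, 1384 and 573 TPM in embryo 1 and 1690, 1567, 3357, 1588, 1325 and 2072 TPM in embryo 2. Its difference of 0.92 exceeded the pooled SD of 0.54. Per the study, second-strand cDNA was made and libraries were prepared with the Nextera XT kit, and no step that marks the strand is described. Whether the quantification used the strand of reads is not given in the sources used here. Without strand a light-strand gene cannot be told apart from heavy-strand precursor that spans it.

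Proteins that transcribe the mitochondrial genome, process its RNA and copy its DNA are encoded in the nucleus. Of 46 such genes, 45 were found and 44 passed the filter. By the 2-fold limit 3 were higher (Mterf1a, Fastkd5 and Mto1) and 2 lower (Pnpt1 and Mterf2), named after their values were seen. Of all genes, 7.69% were higher and 10.7% lower, and the median was -0.10 beside -0.039 over all genes. Some of these calls rest on few cells. Mterf2 was listed at 0 in 7 cells and had 11.08 TPM in embryo 1 cell 6. Its difference was within its pooled SD of 1.18. Mterf1a was listed at 0 in 3 cells. Mto1 had 69.55 TPM in embryo 2 cell 8 and at most 12.57 TPM in any other cell. Slirp, which stabilises mitochondrial mRNAs, ranged from 86.4 to 257 TPM over the 9 cells. Ssbp1, the mitochondrial single-strand DNA-binding protein, ranged from 45.3 to 294 TPM, and Tfb2m, a factor for transcription initiation, from 26.9 to 180 TPM. Tfb2m differed by 0.67, within its pooled SD of 0.98.

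Each cell held an estimated 1608530 to 2122500 fragments. Genes over 1 TPM numbered 12411 to 13319 in the cells numbered 11 to 17 and 11058 to 11960 in those numbered 20 to 25. The 6 blastomere markers were above 0 in every cell, with sums of 1871 to 3102 TPM for embryo 1 and 1702 to 2433 TPM for embryo 2. Of 6 markers of cumulus or granulosa cells, Fshr, Inha, Has2 and Cyp19a1 were listed at 0 in every cell, Foxl2 did not exceed 0.56 TPM, and Amhr2 ranged from 9.73 to 35.4 TPM.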

How the data were processed

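Per the study's methods, RNA reads were set to a common depth per sample and processed with the ramdaq pipeline, in which the authors aligned them with Hisat and quantified genes and transcripts with RSEM on the GENCODE mouse annotation. The deposited values are TPM per gene and per transcript. The DNA file that the authors deposited gives each 40-kb bin of mm10 a score of 1, -1 or 0 for its replication state. RNA columns were assigned to cells by the number that closes their names, since the embryo and cell in the column names are the same for all. Of 13 RNA samples in the labels, 9 had a column and the others were not analysed here. Each table holds 14 columns of no sample, which were not used. No 2 RNA columns were equal.

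Members were taken from GENCODE M21 on the same assembly (GRCm38). Gene differences are means of log2(TPM + 1) in embryo 2 minus embryo 1, for genes with mean TPM over 1, called past 1. The script was tested on simulated data. Nuclear copies were found with BLAST 2.17.0 by aligning M21 transcripts to the mitochondrial genome of 16299 bases (at least 95% identity over at least 50% of the transcript). The class part of the variance was the covariance of class and total over the variance of the total. Fragments were estimated, after the data were seen, from single-transcript genes of 150 to 800 bases. Of the low values used, 47.5% to 57.1% came within 0.1 of a whole number, so these are estimates. Values in every cell are given for the rRNAs, the 3 mRNAs and 3 tRNAs of highest mean TPM and those with the largest and smallest differences. mt-Co3, mt-Cytb and mt-Nd6 were added after their values were seen. Alternatives were another pseudocount, filter, scaling, weighting and number range, and leaving out each cell. Members and lists were chosen with earlier results of these data known. Python 3.11.15, numpy 2.4.6, pandas 2.3.3 and scipy 1.17.1 were used.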

Additional observations from a re-analysis of the deposited data

Results flagged for a closer look

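Within embryo 2, 10 members had 1 cell far from the other 5 by Dixon's ratio (limit 0.625 for 6 values). Of 44 groups of values examined, 2.2 would pass the limit by chance if values were normal and groups independent. The members were measured in the same 6 cells and some held values at 0. No excess over chance can therefore be read from the 10. Embryo 2 cell 5 was highest for mt-Nd2 (13148 TPM, next 6554), mt-Nd5 (10429 TPM, next 4042), mt-Nd6 (3357 TPM, next 2072), mt-Tv (845 TPM, next 574) and mt-Tg (3126 TPM, next 587), and lowest for mt-Co3 (0.16 TPM, next 0.23). These mt-Co3 values are an estimated 0 fragments in every cell, and summed with Gm28437 the same cell was the highest of the 9, at 10199 TPM. Embryo 2 cell 8 was highest for mt-Ts1 (18489 TPM, next 8030) and mt-Te (4948 TPM, next 2534). Embryo 2 cell 7 was highest for mt-Th (2077 TPM, next 683) and mt-Tr (122 TPM, 1 fragment, with the other 5 cells at 0).

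For 3 members, all embryo 1 cells numbered 20 to 25 lay below its cell numbered 11, and all embryo 2 cells numbered 20 to 25 lay above its cells numbered 16 and 17. The step between the number ranges in embryo 2 minus that in embryo 1 was 11034 TPM for mt-Co2 (10152 against -882), 7033 TPM for mt-Atp8 (5323 against -1711) and 1141 TPM for mt-Tv (143 against -998). These differences between the embryos were not tested. Summed with its copies, mt-Co2 did not show the pattern, since embryo 1 cell 6 (6877 TPM) lay above cell 1 (4007 TPM). For mt-Tv, embryo 2 cells 7 and 8 held 5 and 6 fragments and cells 2 and 3 held 5 and 7, so the pattern was not seen in fragments.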

How the results depend on the processing

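No paired analysis was possible because the cell numbers name cells within an embryo and no result comes from a test. Under each alternative run, embryo 2 held the higher mitochondrial, mRNA and rRNA shares, and also the higher tRNA share except within the number range 11 to 17, which has 1 cell of embryo 1. In that range the differences in mitochondrial, mRNA, rRNA and tRNA share were 0.108, 0.357, 0.0182 and -0.267 percentage points. Since the total was so small, the mRNAs carried 330% and the tRNAs -247% of it. In this range the mRNAs and rRNAs held 43.3% and 42.5% of the variance over cells, the composition differences of mRNAs and rRNAs were 4.87 and -0.222 percentage points, and 3 members were higher and 10 lower by the limit of 1, beside 11.6% and 17.1% of all genes. With nuclear copies added, the variance in this range was 41.2% in the mRNAs and 47.5% in the rRNAs. Among members whose difference exceeded the pooled SD, those of mt-Rnr2 (-0.013), mt-Tm (-0.37), mt-Co1 (-0.044), mt-Co2 (-0.064), mt-Tk (-1.09), mt-Atp8 (-0.44) and mt-Atp6 (-0.056) turned negative. Summed with copies, mt-Co2 (0.31) and mt-Atp6 (0.59) stayed positive. Of the members within the pooled SD that passed the filter, mt-Tv (-1.39), mt-Ta (-4.86), mt-Tn (-0.80), mt-Ty (-0.42) and mt-Ts1 (-0.30) turned negative and mt-Tw (0.78) and mt-Tp (0.023) positive. Within 20 to 25, 23 members were over 1, against 15 over 9 cells.

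Weighted by gene length, the mRNAs and rRNAs held 76.3% and 22.7% of the variance and the tRNAs 1.04%. The rRNAs carried 22.3% and the tRNAs 0.929% of the embryo difference, and the composition differences were -9.90 (rRNA) and -0.697 (tRNA) percentage points. By estimated fragments the variance parts were 76.7%, 23.2% and 0.123%, the parts of the difference 22.9% (rRNA) and 0.0860% (tRNA), and the composition differences -10.3 and -0.110. Shorter genes count for less by construction.

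Leaving out each cell in turn gave 59.6% to 73.9% (mRNA) and 11.3% to 21.9% (tRNA) of the variance, and 6 to 21 members over 1. The tRNA difference ran from 0.393 (without embryo 2 cell 8) to 0.993 percentage points, and its part of the embryo difference from 7.95% (without the same cell) to 15.5%. The cause was not tested. Adding nuclear copies turned the difference of mt-Nd3 from -3.05 to 0.71 and that of mt-Co3 from -0.019 to 0.75. Other pseudocounts, filters, denominators and scalings turned 0 of the gene differences that exceeded the pooled SD. Depth limits the tRNAs most, since 1 fragment of a 69-base tRNA was worth 58.8 to 115 TPM.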
